A study of Mus musculus with 6 samples.

Results

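The amyloid precursor protein gene App and genes of the secretases that cut its protein were followed in RNA-Seq of embryonic mouse lenses. The 8 genes were App, the β-secretase genes Bace1 and Bace2, the α-secretase gene Adam10, and Psen2, Ncstn, Aph1a and Psenen, which encode subunits of γ-secretase. They were chosen by name with the difference between Gata3 CKO and control lenses already known, so their values in that contrast are given as a description and without a test. Of the 8 genes, 6 were analysed among the 13024 genes of the count table, and Bace2 and Psenen were not analysed here. All 6 passed the filter on low counts, at least 10 counts in at least 3 libraries, which kept 12879 genes.

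The 6 libraries came from pools of lenses dissected at E14.5, 3 of Gata3 CKO and 3 of control, and a pool held 10 lenses of 5 embryos. The comparison asked which lens transcripts differ when Gata3 is inactivated in the lens. The mice were on a mixed background of C57BL/6 and FVB. Gata3 CKO embryos were Gata3 f/f with Pax6-Cre, which removes exon 4 of Gata3, and they alone carried Cre. Cre in this line is driven by an ectodermal enhancer and the P0 promoter of Pax6, is expressed in the precursors of lens and cornea, and is also found in scattered cells of the neural retina. The control genotype is described as Gata3 f/wt without Cre in one place and as Gata3 f/f in another, and the labels say wild type, so these pools are called control. The libraries held between 15157230 and 18811104 counts. Counts were scaled by edgeR's TMM factors to CPM, the counts of a gene relative to a common library size, and means are given ± SD of 3 pools. Each pool is a biological replicate, and standard errors measure the spread between pools.

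APP is a membrane protein that secretases cut in sequence. Cleavage by α-secretase falls within the amyloid β segment, whereas cleavage by β-secretase and then by γ-secretase releases amyloid β. γ-Secretase is a complex of presenilin, nicastrin, APH1 and PEN2 within the membrane, and it also cuts the Notch receptors after ADAM10 has removed their outer part. In the lens, Notch signalling with the ligand Jag1 takes part in the differentiation of fibre cells.

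The targeted gene was examined first. Gata3 had 202, 386 and 156 counts in control replicates 1, 2 and 3, and 910, 1064 and 894 counts in the libraries labelled CKO. The mean was 16.2 ± 9.71 CPM (SD, n = 3) in control, and the CKO mean was 53.2 ± 6.29 CPM (SD, n = 3). The gene that the label names as lost thus had more counts in every library labelled CKO, and directions below are those of the labels. The counts are per gene and do not show whether exon 4 was missing.

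The pools held lens tissue and RNA of other cell types. All 11 lens fibre markers were measured, with Cryba1 the highest in CPM, and their sum was 39331, 81452 and 27364 CPM in control replicates 1, 2 and 3 and 30915, 24830 and 21586 CPM in CKO replicates 1, 2 and 3. Of 6 lens epithelium markers, 5 were analysed, led by Pax6, and summed to between 1034.2 and 1399 CPM. Control replicate 2 stood highest in both sums. Pax6 itself was lowest there among the control pools, at 598 CPM against 647 and 662 CPM in control replicates 1 and 3. Foxe3, Cdh1, Gja1 and Npnt were highest there. All 11 lens fibre markers had a log2 fold change of CKO against control below 0, with a median of -1.04, and 5 of them, Crygb, Crygd, Bfsp1, Bfsp2 and Dnase2b, were lower in every library labelled CKO. DESeq2 called 4 of the 11 and edgeR 0, with 6 at an unadjusted p under 0.05. Over all genes, DESeq2 called 0.432% lower and edgeR 0% in either direction. At an unadjusted p under 0.05, 2.24% of all genes tested were lower, and 4.69% were lower in every CKO library. The marker list was made with earlier results of these data known, so nothing is read from these counts. Dnase2b, the DNase of fibre cell denucleation, stood at 12.9, 22.6 and 7.54 CPM in control and at 0.97, 0.31 and 0.47 CPM in CKO. Without control replicate 2, 10 of the 11 were below 0 and the median was -0.46. The 5 lens epithelium markers were also all below 0, with a median of -0.35. Their median was 0.042 without control replicate 2 and -0.56 without control replicate 3.

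The 8 retina markers, led by Sfrp2, summed to 1586, 1034 and 2046 CPM in control and to 1519, 1414 and 1986 CPM in CKO. The 7 neuron markers, led by Tubb3, summed to 1072, 513 and 1691 CPM in control and to 1273, 1022 and 1401 CPM in CKO. Control replicate 2 was lowest in both, the reverse of its place among the lens sums. All 8 retina and all 7 neuron markers had log2 fold changes above 0, with medians of 0.13 and 0.17, and in each the groups overlapped. Without control replicate 2 all were below 0, with medians of -0.12 and -0.15, and without CKO replicate 3 the medians were -0.017 and 0.098. The retina and neuron medians were 0.43 and 0.63 without control replicate 3, and 0.22 and 0.29 without CKO replicate 2. The 8 mesenchyme markers, led by Col1a2, summed to 2277, 643 and 302 CPM in control and to 343, 3977 and 571 CPM in CKO. The 5 pigment cell markers, led by Pmel, summed to 309, 67.3 and 53.3 CPM in control and to 71.6, 313 and 60.6 CPM in CKO. Mesenchyme and pigment cell markers were thus high in control replicate 1 and CKO replicate 2.

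The 5 vessel markers, led by Kdr, summed to between 204 and 285 CPM, and the 6 surface ectoderm markers, led by Krt5, to between 37.1 and 117 CPM. The 6 macrophage markers, led by Csf1r, summed to between 40.8 and 82.7 CPM. All 6 had log2 fold changes below 0, with a median of -0.45 and with groups that overlapped. C1qa alone had an unadjusted p under 0.05, against 2.24% of all genes tested that were lower at this p. The 6 markers stayed below 0 with each library left out, and without control replicate 2 the median was -0.22. Of 6 blood markers, 5 were analysed, led by Alas2, and summed to between 38.5 and 156 CPM, while the globin genes Hba-a2, Hbb-bt and Hbb-bs were at 0 in all 6 libraries. The part of these cell types in the values below was not tested. In pooled tissue, fewer cells of a type and less RNA per cell cannot be told apart.

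App, the substrate, lies on the reverse strand of chromosome 16 (chr16:84949685-85173766). Its level was 411, 460 and 352 CPM in control replicates 1, 2 and 3, and 399, 437 and 369 CPM in CKO replicates 1, 2 and 3. The groups overlapped, with the highest and the lowest value both among the control pools. The means were 408 ± 54.3 CPM (SD, n = 3) for control and 402 ± 34.4 CPM (SD, n = 3) for CKO. The log2 fold change of CKO against control was -0.021 with a standard error of 0.12. Its sign was positive when control replicate 1, control replicate 2 or CKO replicate 3 was left out, with log2 fold changes of 0.0011, 0.086 and 0.037.

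Bace1 encodes the β-secretase that makes the amyloidogenic cut in APP, and lies on the forward strand of chromosome 9 (chr9:45838580-45864399). Its level was 49.2, 47.4 and 43.5 CPM in control and 70.9, 71.3 and 59.6 CPM in CKO. All 3 libraries labelled CKO were above all 3 control libraries, with 10.4 CPM between the nearest values. The means were 46.7 ± 2.90 CPM (SD, n = 3) and 67.2 ± 6.63 CPM (SD, n = 3). The log2 fold change was 0.53 with a standard error of 0.10, or a fitted level 1.44 times that of control.

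Adam10, the main α-secretase for APP, lies on the forward strand of the same chromosome (chr9:70678997-70780229). Its level was 316, 420 and 316 CPM in control and 301, 278 and 280 CPM in CKO. All 3 libraries labelled CKO were below all 3 control libraries, and control replicate 2 stood above the other control pools. The means were 351 ± 59.8 CPM (SD, n = 3) and 286 ± 12.7 CPM (SD, n = 3), with a log2 fold change of -0.29 and a standard error of 0.13. Without control replicate 2 the log2 fold change was -0.13.

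Presenilin 2, encoded by Psen2, is a catalytic subunit of γ-secretase (chr1:180227004-180263438, reverse strand). Psen2 stood at 11.0, 13.5 and 11.9 CPM in control and at 13.8, 13.2 and 11.2 CPM in CKO. These groups overlapped, and the log2 fold change was 0.076 with a standard error of 0.15. With 1 library left out it went from 0.015, without CKO replicate 1, to 0.17, without control replicate 2.

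Ncstn encodes nicastrin, the large glycoprotein subunit of the complex (chr1:172066013-172082795, reverse strand). Ncstn stood at 134, 161 and 127 CPM in control and at 136, 133 and 124 CPM in CKO. The groups overlapped, the highest value was that of control replicate 2, and the log2 fold change was -0.11 with a standard error of 0.10. Without control replicate 2 it was 0.013.

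Aph1a encodes a subunit that takes part in assembly of the complex (chr3:95893969-95898288, forward strand). Aph1a stood at 35.6, 46.8 and 36.1 CPM in control and at 44.2, 44.8 and 44.7 CPM in CKO. The CKO pools lay close together, between control replicate 2 and the other control pools, so the groups overlapped. The log2 fold change was 0.17 with a standard error of 0.12, and 0.32 without control replicate 2.

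**Figure D1:**
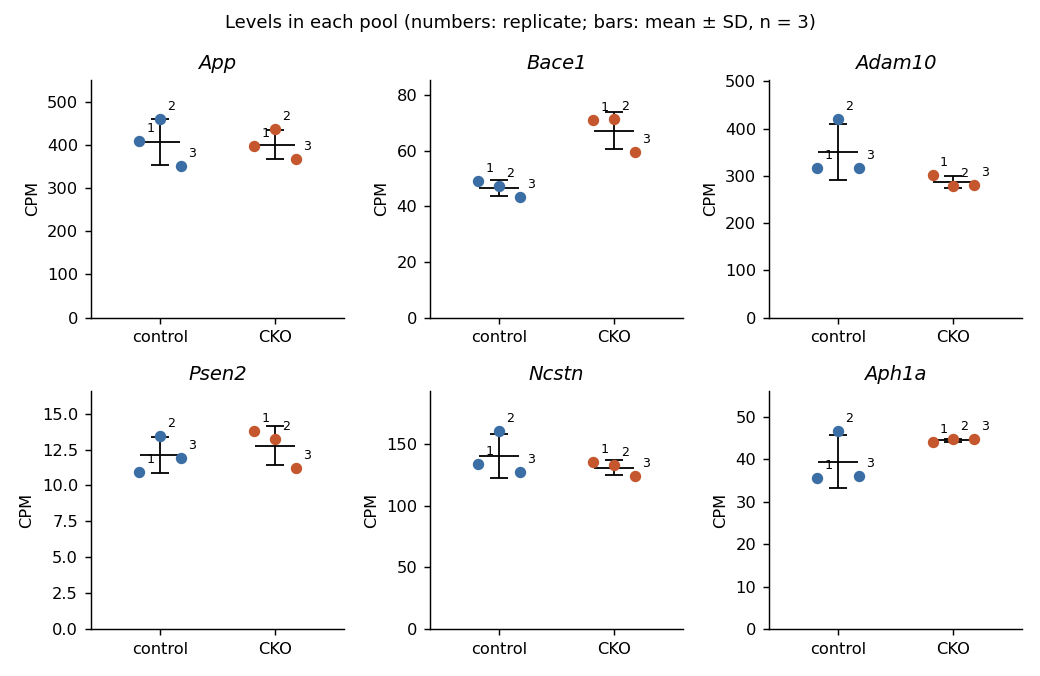
Level of each gene in CPM on a linear axis from 0, for the control (blue) and CKO (orange) pools. Points are pools numbered by replicate, and bars are mean ± SD of 3 pools. Bace1 and Adam10 have groups that do not overlap, in opposite directions, and the other 4 genes overlap.

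Of the 6 genes, 1 was higher in every library labelled CKO and 1 was lower in every one. Over all genes tested, 3.67% (473 of 12879) were higher in every CKO library and 4.69% (604 genes) were lower. The genes were chosen with this contrast known, and nothing is read from their share. In edgeR's quasi-likelihood test with Benjamini-Hochberg adjustment at 0.05, 0 of the 12879 genes passed (0%). An unadjusted p under 0.05 was found for 457 genes, 168 of them higher (1.3%) and 289 lower (2.24%). The count at an unadjusted p moved to 806 without control replicate 2 (489 higher and 317 lower), to 1234 without control replicate 3 and to 271 without CKO replicate 3. limma voom called 0 genes. DESeq2's Wald test gave 29 genes higher (0.224% of 12969) and 56 lower (0.432%).

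Shared variation among the control pools was examined next. In 5 of the 6 genes, all but Bace1, the highest control value was that of control replicate 2, as it was in 5448 of the 12879 genes tested. On the log2 scale it exceeded the mean of control replicates 1 and 3 by 0.41 in Adam10, 0.38 in Aph1a, 0.30 in Ncstn, 0.28 in App and 0.23 in Psen2, against 0.036 in Bace1 and a median of 0.011 over all genes tested. This was the pool with the highest lens fibre sum, and 16 crystallin genes took 16.5% of its counts, against 9.31% and 6.63% in control replicates 1 and 3. In the CKO pools the share was 7.27%, 5.96% and 5.47%. The part of lens fibre content in these 5 genes was not tested.

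The spread between pools can be set against the counting error. The lowest count was 173 for Psen2, for which counting alone gives an SD of 7.60%, and 6150 for App, for which it gives 1.28%. Between pools of a group, the SD of log2 CPM was 0.15 for Psen2 and 0.16 for App. It was 0.12 for Bace1, 0.13 for Ncstn, 0.16 for Aph1a and 0.17 for Adam10, around the median of 0.16 over all genes tested.

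Levels of different genes were compared as CPM per kilobase of merged exons, a measure that was not used to choose them. Adam10 stood first at 64.8 ± 10.7 CPM per kilobase (SD, n = 6 libraries). Ncstn followed at 34.1 ± 3.30, App at 31.1 ± 3.14, Aph1a at 12.2 ± 1.41, Bace1 at 8.97 ± 1.91 and Psen2 at 2.87 ± 0.28 CPM per kilobase. On this scale the α-secretase gene stood above the substrate gene, by 1.05 on the log2 scale, and Bace1 below both. Per kilobase of coding length App stood above Adam10 instead, at 175 against 142 CPM per kilobase, and Bace1 below both at 37.9.

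Neighbours in this order were compared within libraries, without a test, since the pairs came from sorting these same levels. Adam10 was above Ncstn by 0.92 on the log2 scale, in 6 of 6 libraries. App was above Aph1a by 1.36, Aph1a above Bace1 by 0.46 and Bace1 above Psen2 by 1.62, each in 6 of 6 libraries. With the longest transcript as the length, Bace1 was above Psen2 by 0.59, and at coding length by 2.01. For Bace1, whose groups did not overlap, the means were 7.36 ± 0.46 in control and 10.6 ± 1.04 CPM per kilobase in CKO (SD, n = 3 libraries), against 11.5 ± 1.83 and 12.9 ± 0.10 for Aph1a. Ncstn was above App by 0.13 in 5 of 6 libraries, and their values over the libraries overlapped. The order of Ncstn and App also depended on the gene length used, and App was above Ncstn by either of the other lengths.

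**Figure D2:**
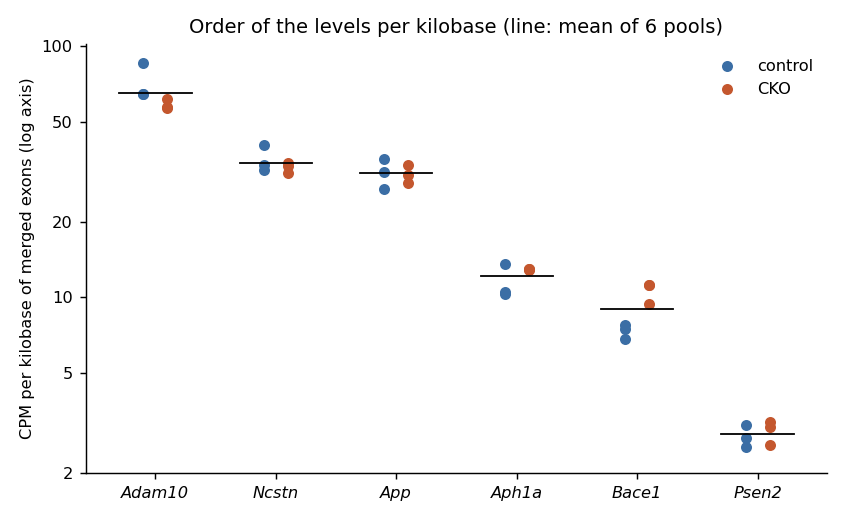
CPM per kilobase of merged exons on a log axis for 6 genes, in order of their mean level. Points are control (blue) and CKO (orange) pools and lines are means of 6 pools. On this scale Adam10 is highest at 64.8 and Psen2 lowest at 2.87, and the points of Ncstn and App overlap, from 31.2 to 40.5 and from 27.1 to 35.4.

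Aph1b, the paralogue of Aph1a, stood at 3.27 ± 0.42 CPM per kilobase (SD, n = 6 libraries), against 12.2 ± 1.41 for Aph1a.

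The balance of β- and α-secretase transcripts was taken as a ratio of counts within each library, which needs no scaling between libraries. The counts of Bace1 per count of Adam10 were 0.155, 0.113 and 0.138 in control and 0.235, 0.256 and 0.213 in CKO. The means were 0.135 ± 0.021 (SD, n = 3) and 0.235 ± 0.022 (SD, n = 3). The groups could not overlap here, since Bace1 was higher and Adam10 lower in every library labelled CKO. The counts of Bace1 per count of App were 0.120, 0.103 and 0.124 in control and 0.178, 0.163 and 0.161 in CKO, also without overlap. Ratios without Bace1 lay apart as well. The counts of Adam10 per count of App were 0.770, 0.912 and 0.898 in control and 0.755, 0.636 and 0.759 in CKO. Those of Ncstn per count of Aph1a were 3.76, 3.44 and 3.52 in control and 3.07, 2.96 and 2.77 in CKO. All these ratios come from the contrast with which the genes were chosen and were not tested. The share of other gene pairs whose ratios lie apart was not examined.

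The genes whose pattern over the 6 libraries was most like that of Bace1 and App were found by the root mean square (RMS) difference of centred log2 CPM, among 10415 genes with a mean of at least 10 CPM. For Bace1 they were Adgrb2, Ddah1, Cpt1c, Tspan18 and Slc12a9, with RMS differences of 0.062, 0.077, 0.086, 0.090 and 0.096. Adgrb2, an adhesion receptor gene, stood at 37.0, 34.0 and 34.3 CPM in control and at 49.9, 49.7 and 45.0 CPM in CKO. Cpt1c, of the carnitine palmitoyltransferase family, stood at 34.8, 38.6 and 31.4 CPM in control and at 55.0, 49.3 and 46.9 CPM in CKO. Both were picked for this likeness, so the pattern they share with Bace1 is no finding.

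For App the nearest genes were Kcnq1ot1, Gng5, Nptn, Irak1 and Parva, with RMS differences of 0.027, 0.027, 0.029, 0.034 and 0.034. Nptn, which encodes the membrane protein neuroplastin, stood at 68.7, 78.8 and 60.3 CPM in control and at 66.7, 75.4 and 65.5 CPM in CKO. Among the 6 genes themselves, App and Ncstn were closest, with an RMS difference of 0.080, and Bace1 and Adam10 were farthest apart, at 0.43.

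**Figure D3:**
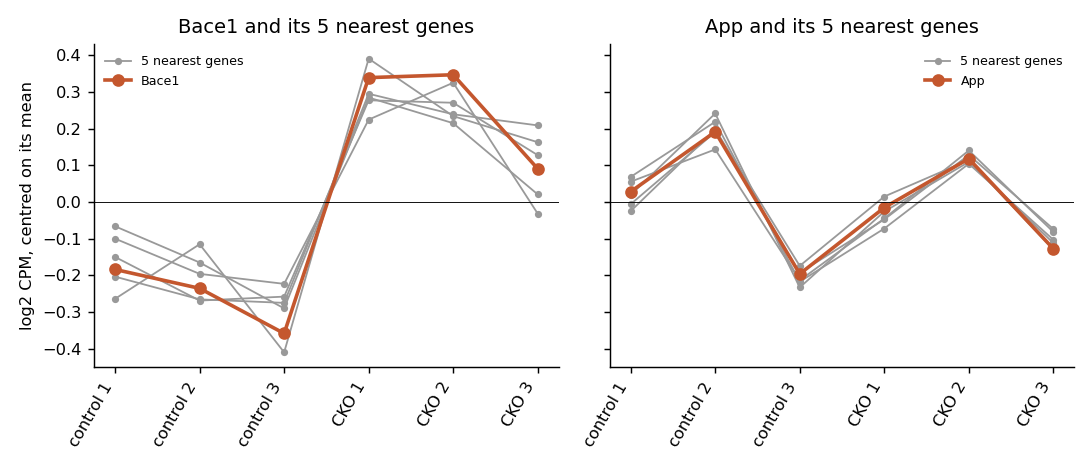
Log2 CPM centred on its mean over the 6 libraries, for Bace1 (left) and App (right) in orange and the 5 genes nearest to each in grey. The x axis names the pools. Bace1 is below its mean in all control pools and above it in all CKO pools, and App is highest in control replicate 2.

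Other genes around APP were taken from 8 lists with 113 genes in all, of which 104 were tested. By edgeR 0 of the 104 passed, 0 had an unadjusted p under 0.05 in either direction, and by DESeq2 0 passed. Of the 104, 56 had a log2 fold change above 0 and 48 below, with a median of 0.0056 against 0.0019 over all genes tested. All CKO values were higher for 1 gene and lower for 1, against 3.67% and 4.69% of all genes tested. Over all genes, DESeq2 called 0.224% higher and 0.432% lower. At an unadjusted p under 0.05, 1.3% of all genes tested were higher and 2.24% lower, and nothing is read from these counts. Nectin1, an adhesion molecule and γ-secretase substrate, stood at 35.7, 41.6 and 44.1 CPM in control and at 47.9, 44.2 and 49.6 CPM in CKO. Rer1, a retrieval receptor of the early secretory pathway that binds γ-secretase subunits, stood at 76.5, 94.8 and 75.1 CPM in control and at 70.9, 70.2 and 71.5 CPM in CKO.

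In each list the gene highest in CPM is named, a choice made without dividing by length. By role, the 10 tested genes among the other secretases had a median log2 fold change of -0.15, with 3 above 0 and 7 below. Ctsd, a lysosomal protease, was highest in CPM, at 362, 488 and 258 CPM in control and at 321, 333 and 305 CPM in CKO. The 5 genes of γ-secretase associated proteins had a median of -0.15, and the 12 of ADAM regulators 0.011. Bsg, a transmembrane glycoprotein gene, was highest in CPM among the former and Tspan14, a tetraspanin that binds ADAM10, among the latter. Tspan14 stood at 160, 184 and 165 CPM in control and at 178, 157 and 168 CPM in CKO, and the groups overlapped.

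The 15 genes of the APP family and adaptors had a median of 0.0037, with 9 above 0 and 6 below. Aplp2, an APP homologue and the highest of them in CPM, stood at 358, 379 and 344 CPM in control and at 380, 367 and 353 CPM in CKO. The 18 trafficking genes had a median of -0.012, and Rtn3, a reticulon that binds BACE1, was highest in CPM. The 14 genes of amyloid β degradation and clearance had a median of 5.0e-05. Clu, an extracellular chaperone and the highest of these in CPM, stood at 274, 444 and 171 CPM in control and at 423, 333 and 381 CPM in CKO, and the groups overlapped.

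The substrates beyond APP were read in the same way. The 17 tested substrates of BACE1 and BACE2 had a median of 0.052, with 10 above 0 and 7 below, and Lrp1, a lipoprotein receptor, was highest in CPM. The 18 tested γ-secretase substrates had a median of 0.096, with 14 above 0 and 4 below. Cdh2, or N-cadherin, was highest in CPM at 446, 557 and 470 CPM in control and 596, 506 and 529 CPM in CKO. Its groups overlapped.

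**Figure D4:**
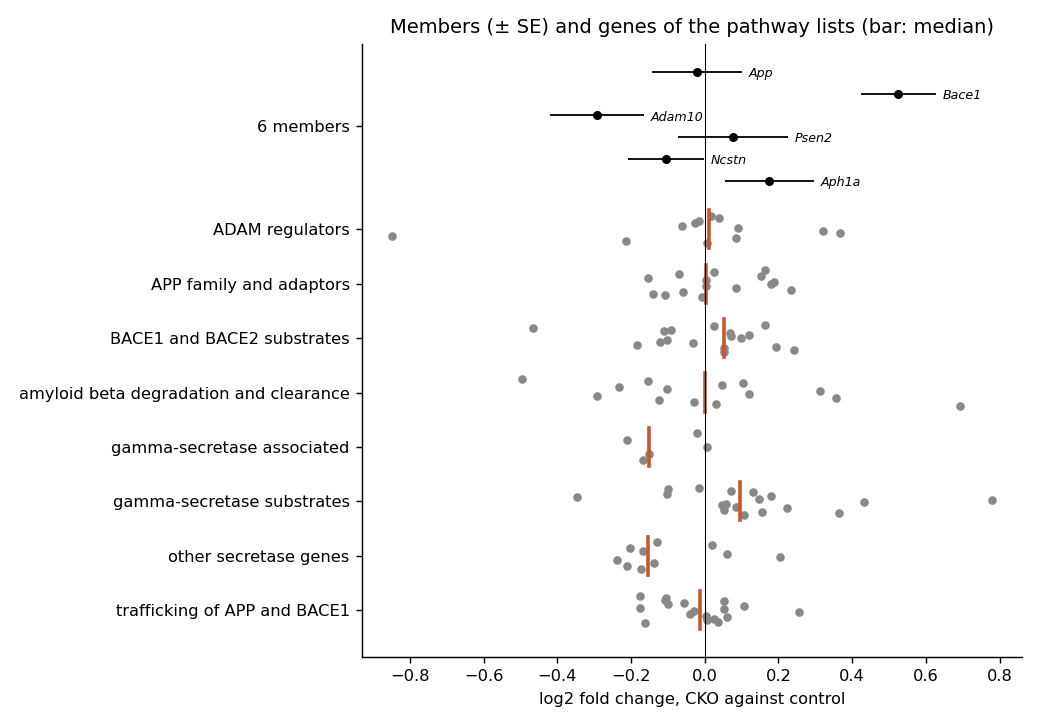
Log2 fold change of CKO against control on the x axis, for the 6 genes (black, ± standard error) and for the tested genes of 8 lists (grey points), with the median of each list as an orange bar. Bace1 lies at 0.53 and Adam10 at -0.29, and the list medians lie between -0.15 and 0.096.

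Because GATA3 binds DNA at GATA letters, the 250 bases before the transcription starts of RefSeq (GRCm38.p6) were searched on both strands for AGATAA or its variant AGATAG, and likewise for TGATAA or its variant TGATAG. They were also searched for the GC box GGGCGG and the TATA box TATAAA. Entries were found for 6 of the 8 genes, App, Adam10, Ncstn, Aph1a, Psen2 and Psenen, with 8 starts in all, and not for Bace1 and Bace2. Of all 32851 starts, 26.5% held a GATA match, 32.7% a GC box and 12.4% a TATA box. Aph1a was the one gene of the 6 with a GATA match, which was CTATCA, the reverse complement of TGATAG, 229 bases before its start, and none held a TATA box. GC boxes numbered 3 in Adam10, 2 at one start of Psen2, 1 in App and 1 in Aph1a, and 2 of those in Adam10 overlap by a base. The window of Adam10 was 74.0% G and C with 29 CpG, against medians of 52.4% and 6 over all starts, and that of Aph1a was 57.2% with 8 CpG. A match describes these letters and is not a measured binding site.

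The windows of Aph1a, with the GATA match, and of Adam10, the gene with the most GC boxes, are shown from 5′ to 3′ with matches in capitals. Both lie on the forward strand, at chr3:95893671-95893920 for Aph1a and chr9:70678732-70678981 for Adam10.
Aph1a: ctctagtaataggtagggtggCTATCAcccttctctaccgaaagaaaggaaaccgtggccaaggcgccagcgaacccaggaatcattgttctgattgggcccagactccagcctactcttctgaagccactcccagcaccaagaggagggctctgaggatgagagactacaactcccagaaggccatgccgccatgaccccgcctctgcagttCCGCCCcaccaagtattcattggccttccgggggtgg
Adam10: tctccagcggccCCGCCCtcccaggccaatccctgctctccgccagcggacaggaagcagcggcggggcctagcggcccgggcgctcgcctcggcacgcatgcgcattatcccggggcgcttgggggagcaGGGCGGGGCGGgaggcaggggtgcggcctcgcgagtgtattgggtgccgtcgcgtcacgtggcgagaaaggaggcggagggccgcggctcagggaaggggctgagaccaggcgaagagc

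Some of the genes share exon bases with a gene on the opposite strand, and the strand option of the counting was not given in the sources used here, so their counts are uncertain to that extent. Bace1 shares 975 of its 6348 exon bases with Rnf214, whose 3′ end meets its own. Rnf214 stood at 73.6, 70.9 and 82.9 CPM in control and at 80.1, 69.7 and 68.0 CPM in CKO, and its groups overlapped. Bace1 also shares 135 bases with the antisense gene Gm16536 and 951 with the unclassified Gm49338, which were not analysed here. Aph1a shares 445 bases with Car14, a carbonic anhydrase gene, which stood at 43.6, 35.7 and 28.8 CPM in control and at 40.9, 40.3 and 44.1 CPM in CKO. Ncstn shares 195 bases with Copa, a subunit gene of the COPI coat, whose log2 fold change was -0.0035 with a standard error of 0.080. App shares 113 exon bases with Gm49227. Gm10791, Gm49228, Gm49226 and Gm27295 lie within App and Gm31728 overlaps Psen2, each sharing 0 exon bases, and no annotated gene overlaps Adam10.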

How the data were processed

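The authors made strand-specific libraries, aligned the reads to the mm10 genome with TopHat2 2.0.13, counted fragments per RefSeq gene with HTSeq 0.6.1 and deposited these raw counts per gene without normalization. Per the study's methods, genes were kept where the mean FPKM of at least one group exceeded 1. The submitters' processing notes also name Trim Galore, Cuffdiff 2.2.1 and DESeq2. Library totals were 15157230 to 18811104. In each of the 6 genes the SD between pools, taken over both groups, exceeded the counting SD at its lowest count. Among the CKO pools alone, the SD of Aph1a was 0.81% of its mean, below its counting SD of 4.22%. Other genes were not examined for this.

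Counts were normalized by TMM and fitted in edgeR 4.0.16 (R 4.3.3) over genes that reached 10 counts in 3 or more libraries, with a robust quasi-likelihood test and Benjamini-Hochberg adjustment. DESeq2 1.42.0 and limma 3.58.1 (voom), other factors and filters, a replicate block and leaving out each library were alternatives. The fitting and permutation tests were tested on simulated data. The planned permutation test of neighbours in level per kilobase is not reported, since its pairs were set by sorting the tested values. Positions and lengths came from GENCODE M21 on GRCm38, the assembly of mm10. Centred log2 CPM used an offset of 0.5. Python 3.11.15, pandas 2.3.3 and matplotlib 3.10.9 were used.

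The genes, lists and tests were chosen with earlier results of these data known. Genes named are the 8 genes, the gene highest in CPM of each pathway list, pathway genes with groups that do not overlap or an unadjusted p under 0.05, the 5 nearest in pattern to Bace1 and App, and overlapping neighbours. Aph1b, the leading gene of each marker list, C1qa, the lens epithelium markers and the lens fibre markers with groups that do not overlap were named after their values were seen. Gene symbols were those of the table.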

Additional observations from a re-analysis of the deposited data

How the results depend on the processing

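In the comparison of CKO with control, edgeR called 0 genes with RLE or upper quartile factors, without crystallins in the library sizes, and under both other filters, and limma voom called 0. DESeq2's Wald test called 85 genes, and 78 with a prior on fold changes. The cause was not tested. With each library left out in turn, 0 to 1 genes were called. With the replicate number as a replicate block 0 genes were called and 516 had an unadjusted p under 0.05. Residual correlations of same-numbered pools were -0.49, 0.090 and 0.44, and control replicate 1 correlated best with CKO replicate 2. Both of these pools were high in mesenchyme and pigment cell markers, so the correlations cannot decide whether the numbers pair the samples. The numbers are those of the titles. The count columns number the CKO pools 2, 3 and 4, and by them control 2 and 3 correlated at 0.088 and -0.48 with their CKO partners.

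Over the 15 alternatives the log2 fold change kept its sign in Bace1 (0.43 to 0.61), Adam10 (-0.36 to -0.13), Aph1a (0.11 to 0.32) and Psen2 (0.015 to 0.17). The groups of Bace1 and of Adam10 do not overlap, so leaving out a library could hardly change their sign. The lowest value of Psen2, without CKO replicate 1, had a standard error of 0.18. With a library left out the log2 fold change was -0.12 to 0.086 in App and -0.17 to 0.013 in Ncstn, the cause not tested. In the order of levels per kilobase, the 5 neighbour pairs kept their direction with each library left out. With the longest transcript or the coding length, 4 did, and the log2 difference of Ncstn over App became -0.14 and -1.45, as the length of App went from 12996 bases to 8167 and 2310 and that of Ncstn from 3975 to 3016 and 2124. At coding length App also passed Adam10, whose log2 difference over App went from 1.05 to -0.31. The planned comparison of Bace1 with Bace2 was not run, since Bace2 was not analysed here. Depth limits Psen2 most.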
